A study of Mus musculus with 6 samples.

Results

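The miRNAs described here are 9 mature mouse miRNAs whose main sites of expression are muscle, liver, gut and the endocrine pancreas rather than brain, measured in extracellular vesicles recovered from mouse brain. They were chosen by name, as a check on the purity of the vesicles, but with earlier results of these data known. The muscle members are mmu-miR-1a-3p, mmu-miR-133a-3p, mmu-miR-133b-3p and mmu-miR-206-3p, and the liver member is mmu-miR-122-5p. Those of gut and liver are mmu-miR-192-5p, mmu-miR-194-5p and mmu-miR-215-5p, and mmu-miR-375-3p is of islet and gut endocrine cells. The 9 members occupy 8 of the 1926 rows of the deposited table, because miR-133a-3p and miR-133b-3p share a merged row. Of the 8 rows, 7 were above 0 in at least 1 library, as were 803 rows of the whole table, and miR-215-5p was listed at 0 in all 6 libraries.

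The libraries fall into 2 groups of 3, vesicles from the brains of mice that had been through status epilepticus (SE-BDEV 1, 2 and 3) and vesicles from control mice (CON-BDEV 1, 2 and 3). Status epilepticus is a prolonged seizure, and all titles carry day 10. What the day is counted from, the strain, age and sex of the mice, the agent that induced the seizures and how many animals went into a library are not known from the labels. Separate animals are not stated for the libraries of either group, so the spread between them may be technical.

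Vesicles are membrane particles that cells release with proteins and small RNAs inside. A mature miRNA pairs with messenger RNAs mainly through its seed, bases 2 to 8 from the 5′ end, and lowers their output. miR-122 is the dominant miRNA of hepatocytes and circulates in plasma. miR-1 and miR-133 are made together in skeletal and heart muscle, and miR-206 and miR-133b form a second muscle cluster that is active in skeletal muscle. miR-192, miR-194 and miR-215 are miRNAs of intestine, liver and kidney, and miR-375 is made in pancreatic islets, pituitary and other endocrine cells. In a brain preparation such miRNAs are read as a check on material from outside the brain.

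No mature sequence was found in RefSeq (GRCm38.p6) for miR-1a-3p, miR-122-5p, miR-375-3p and miR-133a-3p, the last being in the merged row. The sequences matched for the other 5 of the 9 members are shown here, with the seed in capitals.
miR-206-3p: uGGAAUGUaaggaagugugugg
miR-133b-3p: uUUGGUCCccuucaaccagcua
miR-192-5p: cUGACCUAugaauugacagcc
miR-215-5p: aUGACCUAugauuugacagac
miR-194-5p: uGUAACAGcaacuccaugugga
miR-192-5p and miR-215-5p carried the same seed and differed at 3 of 21 positions, C1A, A12U and C20A (miR-192-5p base first, positions from the 5′ end). Among miRNAs with a sequence in the RefSeq table, the seed of miR-206-3p was shared with miR-6349 and miR-6382, both listed at 0 in all libraries. miR-1, whose miR-1a-3p was the most abundant member, is known to share the miR-206 seed.

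The miR-206-3p sequence lies at chr1:20679055-20679076 on the plus strand and that of miR-133b-3p at chr1:20682834-20682855, also on the plus strand, with 3757 bases between them. In GENCODE M21, which is on the same build, both lie within an exon of the long non-coding RNA Gm28653. miR-194-5p has a copy at chr19:6264658-6264679, 177 bases from miR-192-5p at chr19:6264857-6264877. Its other copy, at chr1:185313325-185313346, lies 263 bases from miR-215-5p at chr1:185313610-185313630. All 4 of these are on the plus strand. The chromosome 1 copy is in an intron of 2010103J01Rik, an antisense transcript, while miR-215-5p is in an exon of it, and both lie opposite an intron of Iars2 on the other strand. The submitters' processing notes name another build, mm9, so these positions are given only for the sequences printed here.

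Levels were given by the authors as RPM, reads assigned to a miRNA per 1000000 such reads in the library. Libraries held 4996073 to 9391887 such reads in SE-BDEV and 4400167 to 8147118 in CON-BDEV, and the shallowest of all was CON-BDEV 1. Within a tolerance of 0.001 step, all values in a library were whole multiples of a step taken as 1 read, and the smallest value listed in any library was 2 reads. Values of 1 read are thus missing, and a listed 0 can stand for 1 read. Separately, miR-24-3p was listed at 0 in 4 libraries and at 3128 RPM in SE-BDEV 3 and 3544 RPM in CON-BDEV 3. The reason for its zeros was not tested. For both reasons a listed 0 is not taken as a measured absence. Intervals on reads cover counting error only.

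The members together made up 0.0382% ± 0.00330 of miRNA reads in SE-BDEV and 0.0273% ± 0.00192 in CON-BDEV (SD, n = 3 each). Their summed level was 398, 344 and 404 RPM in SE-BDEV 1, 2 and 3, against 257, 294 and 268 RPM in CON-BDEV 1, 2 and 3. All 3 SE-BDEV sums lay above all 3 CON-BDEV sums, which also held with median-of-ratios scaling and with a total taken over all but the 10 most abundant miRNAs. The difference of the mean sums, SE-BDEV minus CON-BDEV, was 109 RPM. Of it miR-1a-3p gave 64.6 RPM, miR-122-5p 38.5 RPM, miR-375-3p 15.9 RPM and miR-206-3p -12.4 RPM. The share of comparable sums without overlap is not given here, so the members' sum is a description without a test. In bulk vesicle RNA, more vesicles from a source and more of a miRNA per vesicle cannot be told apart.

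Set against miR-124-3p, the neuron-specific miRNA, the members were low in every library. miR-124-3p stood at 7990, 6654 and 9540 RPM in SE-BDEV and at 7817, 7689 and 9134 RPM in CON-BDEV. It exceeded miR-1a-3p by 46.7 to 144 times over the 6 libraries, miR-122-5p by 52.1 to 115 times, miR-206-3p by 92.7 to 163 times and miR-375-3p by 142 to 373 times. Per 1000 RPM of miR-124-3p the members summed to 49.8, 51.6 and 42.3 RPM in SE-BDEV and to 32.8, 38.2 and 29.4 RPM in CON-BDEV. The other neuronal miRNAs miR-9-5p, miR-128-3p and miR-138-5p were each at 3652 RPM or more in SE-BDEV and 3550 RPM or more in CON-BDEV, so the brain markers were abundant in both groups.

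**Figure D1:**
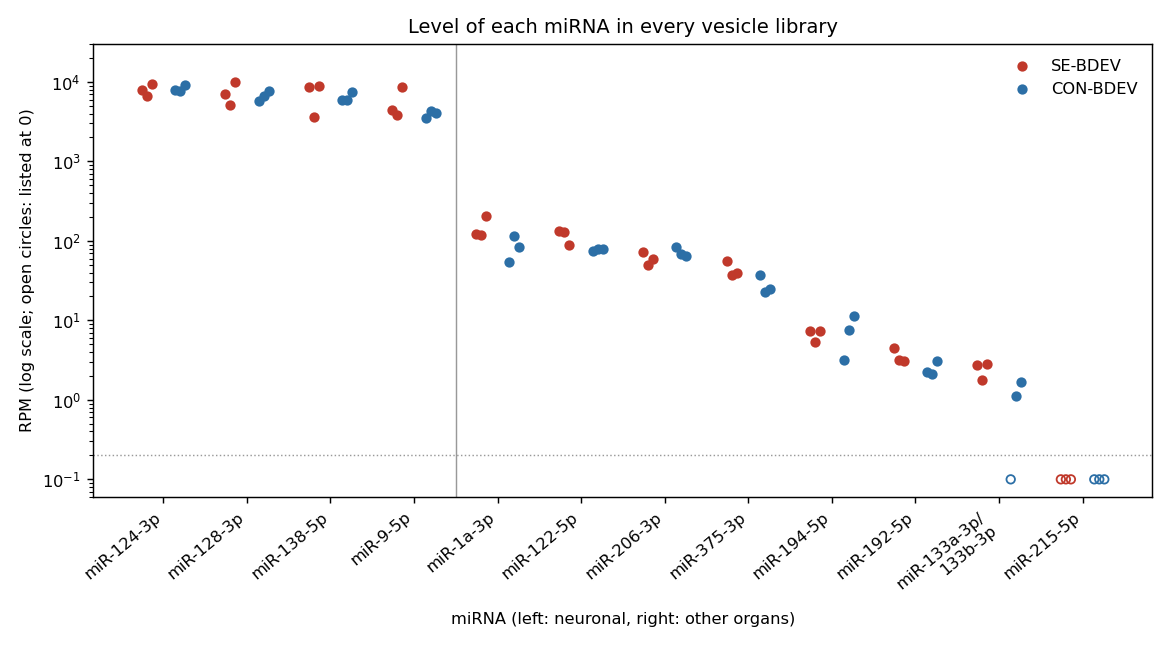
RPM on a log scale of 4 neuronal miRNAs (left of the line) and of the 8 member rows (right), with 1 point per library, SE-BDEV left of CON-BDEV for each miRNA. Open circles mark libraries in which the miRNA is listed at 0. miR-1a-3p, miR-122-5p, miR-206-3p and miR-375-3p lie between 22.7 and 204 RPM, and the other members lie below them.

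The members fell into 2 levels. miR-1a-3p (mean over 6 libraries 116 RPM, rank 117 of the 803 rows above 0), miR-122-5p (96.8 RPM, rank 132), miR-206-3p (66.1 RPM, rank 152) and miR-375-3p (36.2 RPM, rank 200) were well above the median of those rows, at 4.30 RPM. miR-194-5p (6.99 RPM, rank 344), miR-192-5p (3.03 RPM, rank 432) and the merged row of miR-133a-3p and miR-133b-3p (1.69 RPM, rank 507) were far lower. RPM is a count of reads with no length term, and carries each miRNA's own capture in library preparation. miR-1a-3p exceeded miR-122-5p in only 3 of 6 libraries and miR-122-5p exceeded miR-206-3p in 5 of 6, so those neighbours did not separate. From miR-206-3p down to the merged row each member exceeded the next in all 6 libraries. The lowest steps rested on few reads, however. In SE-BDEV 3 miR-192-5p had 21 reads and the merged row 19. Their 95% intervals on reads overlapped, at 1.93 to 4.76 RPM and 1.69 to 4.40 RPM.

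SE-BDEV was compared with CON-BDEV, the contrast named in the series' design, by limma on log2(RPM + 1) over 308 miRNAs, those averaging at least 10 RPM. Of the members 4 were in this fit, and 0 of the 4 passed at a Benjamini-Hochberg adjusted p under 0.05, against 0.974% of all tested miRNAs (3 miRNAs, the immune-linked miR-142a-5p, miR-155-5p and miR-21a-5p, all higher in SE-BDEV). At an unadjusted p under 0.05 there was 1 member, miR-1a-3p, against 10.4% of all tested miRNAs. That count was 0 with median-of-ratios scaling, with a total over all but the 10 most abundant miRNAs and with quantile normalization. It was also 0 without SE-BDEV 1, without CON-BDEV 3 and without both libraries numbered 3. Leaving out any other 1 library kept the count at 1, though the member was not always miR-1a-3p. The log2 difference was above 0 for 3 members and below 0 for 1, with a median of 0.60, beside a median of 0.06 and 57.5% above 0 over all tested miRNAs. With no filter on level, all 7 member rows above 0 were tested and 0 passed. Of the 4 neuronal miRNAs, 3 had higher and 1 had lower values in SE-BDEV, and 0 passed.

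mmu-miR-1a-3p, which represses non-muscle programmes in muscle cells, was at 123, 119 and 204 RPM in SE-BDEV 1, 2 and 3, against 54.3, 115 and 83.2 RPM in CON-BDEV 1, 2 and 3. All 3 SE-BDEV values lay above the CON-BDEV values, with SE-BDEV 2 and CON-BDEV 2 nearly level. Its mean was 149 ± 48.0 RPM in SE-BDEV and 84.2 ± 30.4 RPM in CON-BDEV (SD, n = 3 each), a log2 difference of 0.83 (95% interval 0.05 to 1.62; limma adjusted p = 0.438). The highest value was SE-BDEV 3 and the lowest CON-BDEV 1, and without CON-BDEV 1 the log2 difference was 0.55.

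mmu-miR-122-5p, which sustains lipid and cholesterol metabolism in hepatocytes, was at 132, 128 and 88.7 RPM in SE-BDEV, against 75.0, 78.1 and 79.7 RPM in CON-BDEV. The CON-BDEV libraries lay close together, and SE-BDEV 3 was nearer to them than to the other SE-BDEV libraries. The means were 116 ± 23.7 RPM in SE-BDEV and 77.6 ± 2.37 RPM in CON-BDEV (SD, n = 3 each), a log2 difference of 0.55 (95% interval -0.10 to 1.21; limma adjusted p = 0.457). These values rested on 599 to 1237 reads in SE-BDEV and 330 to 636 in CON-BDEV.

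Among the 4 tested members the groups did not overlap for 2, miR-1a-3p and miR-122-5p, both higher in SE-BDEV, against 16.2% of all tested miRNAs in either direction and 10.7% with SE-BDEV above. Both overlapped with median-of-ratios scaling and with a total over all but the 10 most abundant miRNAs. With median-of-ratios scaling miR-1a-3p ranged from 114 to 188 in SE-BDEV and from 52.6 to 134 in CON-BDEV, and miR-122-5p from 81.9 to 138 in SE-BDEV and from 72.6 to 91.1 in CON-BDEV.

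mmu-miR-375-3p, a regulator of insulin secretion in islets, was at 56.3, 37.2 and 39.0 RPM in SE-BDEV, against 37.5, 22.7 and 24.5 RPM in CON-BDEV. The groups overlapped through CON-BDEV 1, whose value lay just above SE-BDEV 2. The log2 difference was 0.64 (95% interval -0.07 to 1.34; limma adjusted p = 0.438), from means of 44.2 ± 10.6 RPM in SE-BDEV and 28.2 ± 8.08 RPM in CON-BDEV (SD, n = 3 each). Taken by replicate number, SE-BDEV minus CON-BDEV was 0.57, 0.69 and 0.65 on the log2(RPM + 1) scale for numbers 1, 2 and 3. It was 1.16, 0.05 and 1.29 for miR-1a-3p, 0.80, 0.70 and 0.15 for miR-122-5p and -0.22, -0.45 and -0.15 for miR-206-3p. The labels do not call equal numbers pairs, so these differences are a description.

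mmu-miR-206-3p, a skeletal muscle miRNA of satellite cell differentiation, was the tested member with lower values in SE-BDEV. It was at 72.1, 49.0 and 58.5 RPM in SE-BDEV, against 84.3, 67.5 and 65.1 RPM in CON-BDEV, and the groups overlapped. The means were 59.9 ± 11.6 RPM in SE-BDEV and 72.3 ± 10.5 RPM in CON-BDEV (SD, n = 3 each), a log2 difference of -0.28 (95% interval -0.93 to 0.37; limma adjusted p = 0.759).

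**Figure D2:**
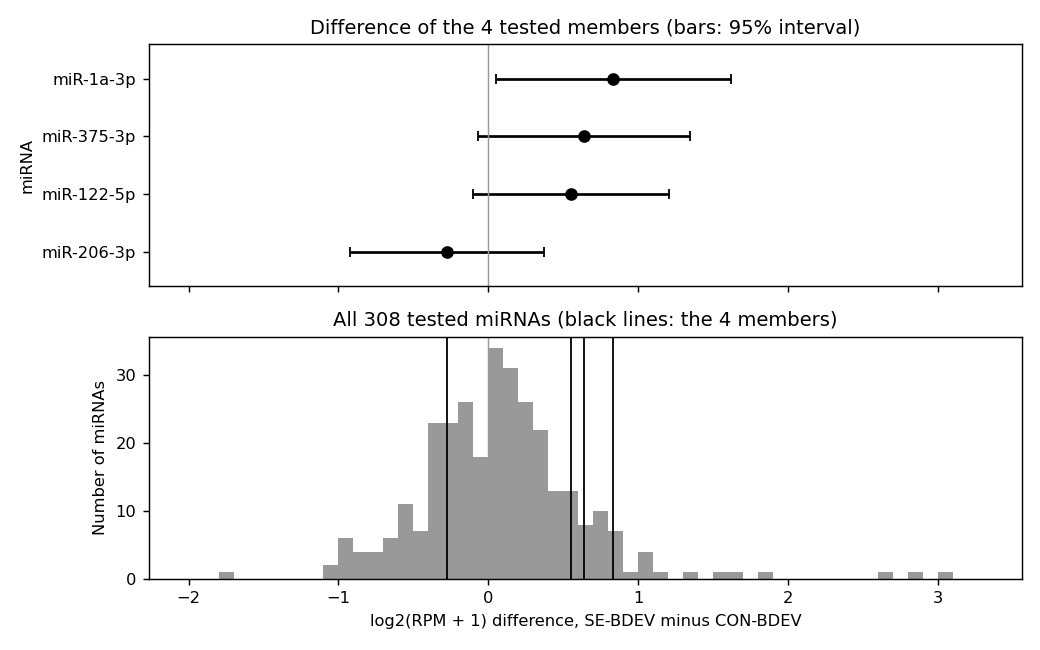
Above, the log2(RPM + 1) difference of SE-BDEV minus CON-BDEV for the 4 members in the fit, with 95% intervals from limma. Below, the same difference for all 308 tested miRNAs as a histogram, with black lines at the members, which run from -0.28 for miR-206-3p to 0.83 for miR-1a-3p. The called miRNAs lie farther right, from 1.85 for miR-142a-5p.

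In the authors' deposited table, made with DESeq2, the log2 fold changes were 0.70 for miR-1a-3p, 0.58 for miR-375-3p, 0.51 for miR-122-5p and -0.35 for miR-206-3p. The adjusted p in the authors' deposited table was 0.638 for the first 3 and 0.707 for miR-206-3p, and 1.12% of the 625 miRNAs with an adjusted p in it were under 0.05. None of the 7 member rows in it was under 0.05. The merged row of miR-133a-3p and miR-133b-3p had the largest fold change of the members in the authors' deposited table, 1.28 with a standard error of 1.36.

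No muscle member passed, and their values did not all lie on the same side. miR-1a-3p and the merged row of miR-133a-3p and miR-133b-3p had higher values in SE-BDEV and miR-206-3p lower ones. The muscle members summed to 198, 170 and 265 RPM in SE-BDEV and to 139, 184 and 150 RPM in CON-BDEV, and these sums overlapped. Within a library the ratio of 2 miRNAs does not depend on scaling, so the 6 pairs of tested members were compared by ratio, a choice made after the values were seen. The ratio of miR-206-3p to miR-375-3p was 1.28, 1.32 and 1.50 in SE-BDEV, against 2.25, 2.97 and 2.66 in CON-BDEV, with no overlap. Its mean log2 ratio was 0.45 ± 0.12 in SE-BDEV and 1.38 ± 0.20 in CON-BDEV (SD, n = 3 each; two-sided exact permutation p = 0.1, the smallest that 3 against 3 allow, and 0.3 adjusted over the 6 pairs).

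The ratio of miR-122-5p to miR-206-3p also did not overlap, at 1.83, 2.60 and 1.52 in SE-BDEV and 0.889, 1.16 and 1.22 in CON-BDEV (two-sided exact permutation p = 0.1, adjusted 0.3; n = 3 each). The muscle pair, miR-1a-3p to miR-206-3p, stood at 1.70, 2.43 and 3.49 in SE-BDEV and at 0.644, 1.71 and 1.28 in CON-BDEV, where CON-BDEV 2 just exceeded SE-BDEV 1 (two-sided exact permutation p = 0.2, adjusted 0.4; n = 3 each). The 3 pairs without miR-206-3p overlapped, with exact permutation p of 0.7 to 0.9. Both pairs that did not overlap hold miR-206-3p, so they are not independent. The share of pairs without overlap over all tested miRNAs is not given here, so these ratios are a description.

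**Figure D3:**
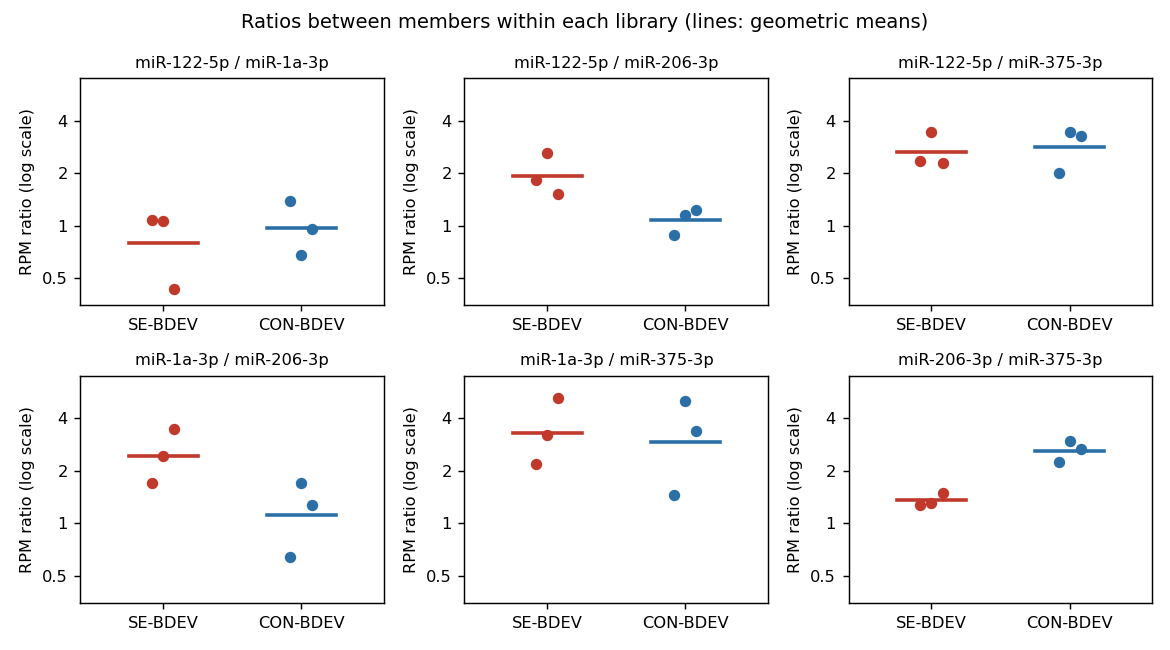
RPM ratio on a log scale for each of the 6 pairs of tested members within each library, with SE-BDEV left and CON-BDEV right, and lines at the geometric means. The groups are apart for miR-206-3p over miR-375-3p (1.28 to 1.50 in SE-BDEV, 2.25 to 2.97 in CON-BDEV) and for miR-122-5p over miR-206-3p. Both of these pairs hold miR-206-3p, and the points of the other pairs overlap.

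The merged row of mmu-miR-133a-3p and mmu-miR-133b-3p, the muscle miRNAs made with miR-1 and miR-206, was at 2.77, 1.80 and 2.81 RPM in SE-BDEV, from 26, 9 and 19 reads. In CON-BDEV 1 the row read 0, and CON-BDEV 2 and 3 had 1.10 and 1.67 RPM, from 9 and 11 reads. The SE-BDEV values lay above the CON-BDEV values (two-sided exact permutation p = 0.1, the smallest possible with n = 3 each). This row was below the level filter, and the share of such low rows without overlap is not given here. The 95% Clopper-Pearson intervals of neighbouring libraries overlapped, at 0.824 to 3.42 RPM for SE-BDEV 2 and 0.835 to 2.99 RPM for CON-BDEV 3. In the 5 libraries that list it, miR-1a-3p exceeded this row by 44.4 to 104 times and miR-206-3p exceeded it by 20.8 to 61.1 times. Its reads cannot be divided between miR-133a-3p and miR-133b-3p.

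mmu-miR-192-5p, a miRNA of intestinal and kidney epithelium, was at 4.47, 3.20 and 3.11 RPM in SE-BDEV, against 2.27, 2.09 and 3.04 RPM in CON-BDEV. The groups did not overlap (two-sided exact permutation p = 0.1, the smallest possible with n = 3 each). However, SE-BDEV 3 and CON-BDEV 3 rested on 21 and 20 reads and the groups overlapped with either of the other scalings. miR-192-5p was below the level filter too, and no share of such rows without overlap is given. miR-194-5p, its cluster partner, was at 7.35, 5.40 and 7.26 RPM in SE-BDEV and at 3.18, 7.49 and 11.2 RPM in CON-BDEV (two-sided exact permutation p = 0.8, n = 3 each). The lowest and the highest of its values were both CON-BDEV libraries. Its difference, SE-BDEV minus CON-BDEV, was -0.636 RPM with all libraries and 1.34 RPM without CON-BDEV 3, the highest.

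Each of the 2 gene clusters that hold miR-194 has a neighbour and an opposite arm of its own. miR-192-5p, from the chromosome 19 cluster, was above 0 in all 6 libraries, while miR-215-5p, from the chromosome 1 cluster, was listed at 0 in all 6, and the sequences printed above differ at 3 positions. The opposite arm from the chromosome 19 copy, miR-194-2-3p, was at 2.77 RPM in SE-BDEV 1 and 2.82 RPM in CON-BDEV 2, from 26 and 23 reads, and listed at 0 elsewhere. miR-194-1-3p, from the chromosome 1 copy, was listed at 0 in all libraries. miR-194-5p itself is identical from both copies.

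Of 14 opposite arms and paralogs of the members, 12 were listed at 0 in all libraries. These included miR-122-3p, miR-206-5p, miR-375-5p and both miR-1a 5p arms, although their partners reached 37.2 RPM or more in every SE-BDEV library and 22.7 RPM or more in every CON-BDEV library. The other 2 were miR-194-2-3p and miR-1b-5p, which was listed only in SE-BDEV 3, at 0.296 RPM.

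Other miRNAs of organs outside the brain were taken as a list of 25 names in 24 rows, of which 16 were above 0 and 6 were tested. Of these 6, the log2 difference was above 0 for 4 and below 0 for 2, with a median of 0.18, and 0 passed in either direction. The heart miRNAs miR-208a-3p and miR-208a-5p were listed at 0 in all libraries, as miR-215-5p was. So were the pancreatic miR-216a-5p and miR-216b-5p and the liver and kidney miR-802-5p. However, the pancreatic miR-217-5p was at 3.73, 0 and 2.22 RPM in SE-BDEV and at 7.27, 0 and 2.74 RPM in CON-BDEV. The heart miR-208b-3p was listed only in SE-BDEV 1, from 15 reads. All 7 epithelial rows of the list were above 0 in at least 1 library. Most of the list's level came from miR-143-3p, a miRNA of smooth muscle and mural cells, which exceeded every member. It was at 1094, 825 and 1263 RPM in SE-BDEV and at 752, 683 and 1089 RPM in CON-BDEV (log2 difference 0.34, limma adjusted p = 0.678). The log2 differences of the other tested rows were 0.02 for miR-145a-5p of smooth muscle, 0.38 for miR-429-3p and -0.18 for miR-203-3p of epithelia, and 0.82 for miR-10a-5p of the caudal body, and the lowest limma adjusted p among them was 0.459, for miR-10a-5p. miR-499-5p, encoded within a myosin gene of heart and slow muscle, was at 1.81, 0.801 and 3.11 RPM in SE-BDEV and at 0.909, 2.33 and 0.912 RPM in CON-BDEV. The merged miR-486a-5p/486b-5p, a miRNA of muscle and red cells, was at 110, 102 and 111 RPM in SE-BDEV and at 199, 87.4 and 83.6 RPM in CON-BDEV (log2 difference -0.07, limma adjusted p = 0.959). Its high value was in CON-BDEV 1, where miR-1a-3p was lowest.

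Blood is another place where miR-122 and the muscle miRNAs occur. In a list of 6 blood miRNAs, miR-451a and miR-144-3p, which mark red cells, were listed at 0 in all 6 libraries. The other 4 were above 0 in at least 1 library. The merged miR-486a-5p/486b-5p, also of red cells, ranged from 83.6 to 199 RPM. miR-150-5p was at 81.2, 61.6 and 49.3 RPM in SE-BDEV and at 77.7, 63.8 and 88.5 RPM in CON-BDEV. miR-223-3p was at 6.18, 7.21 and 4.30 RPM in SE-BDEV and at 3.41, 2.58 and 0 RPM in CON-BDEV. Of the 3 tested members of the list, 1 had higher and 2 had lower values in SE-BDEV, with 0 passing. The list summed to 11058 to 12055 RPM in SE-BDEV and to 6532 to 9373 RPM in CON-BDEV, nearly all of it miR-16-5p, which many other cells also make. The 4 endothelial and mural miRNAs summed to 4965 to 7620 RPM in SE-BDEV and to 3598 to 5404 RPM in CON-BDEV. The log2 difference was above 0 for 4 of 4 tested, beside 57.5% of all tested miRNAs, and 0 passed. For miR-145a-5p it was 0.02, with mean RPM of 23.6 in SE-BDEV and 24.3 in CON-BDEV. miR-143-3p and miR-145a-5p are also in the list of other organs. The 6 microglial and inflammatory miRNAs summed to 472 to 601 RPM in SE-BDEV and to 85.2 to 119 RPM in CON-BDEV, with 5 of 5 tested higher and 3 passing, a direction already known when the list was chosen. Of 3 oligodendrocyte miRNAs miR-219a-5p was listed at 0 in all libraries, and the list summed to 198 to 296 RPM in SE-BDEV and to 137 to 170 RPM in CON-BDEV, with 2 of 2 tested higher and 0 passing. The part of all these miRNAs in the members' values was not tested.

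By the mean absolute difference of centred log2(RPM + 1) values over the 6 libraries, the tested miRNAs nearest to miR-1a-3p were miR-9-3p (0.15), miR-126a-5p (0.19) and miR-338-3p (0.20). Nearest to miR-122-5p were miR-93-5p (0.11), miR-670-5p (0.12) and miR-1941-5p (0.13). miR-206-3p lay nearest to miR-30c-2-3p (0.08), miR-1843b-3p (0.09) and miR-30c-1-3p (0.09). miR-375-3p lay nearest to miR-425-5p (0.15), miR-17-3p (0.16) and miR-129-5p (0.17). None of the 12 was another member.

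**Figure D4:**
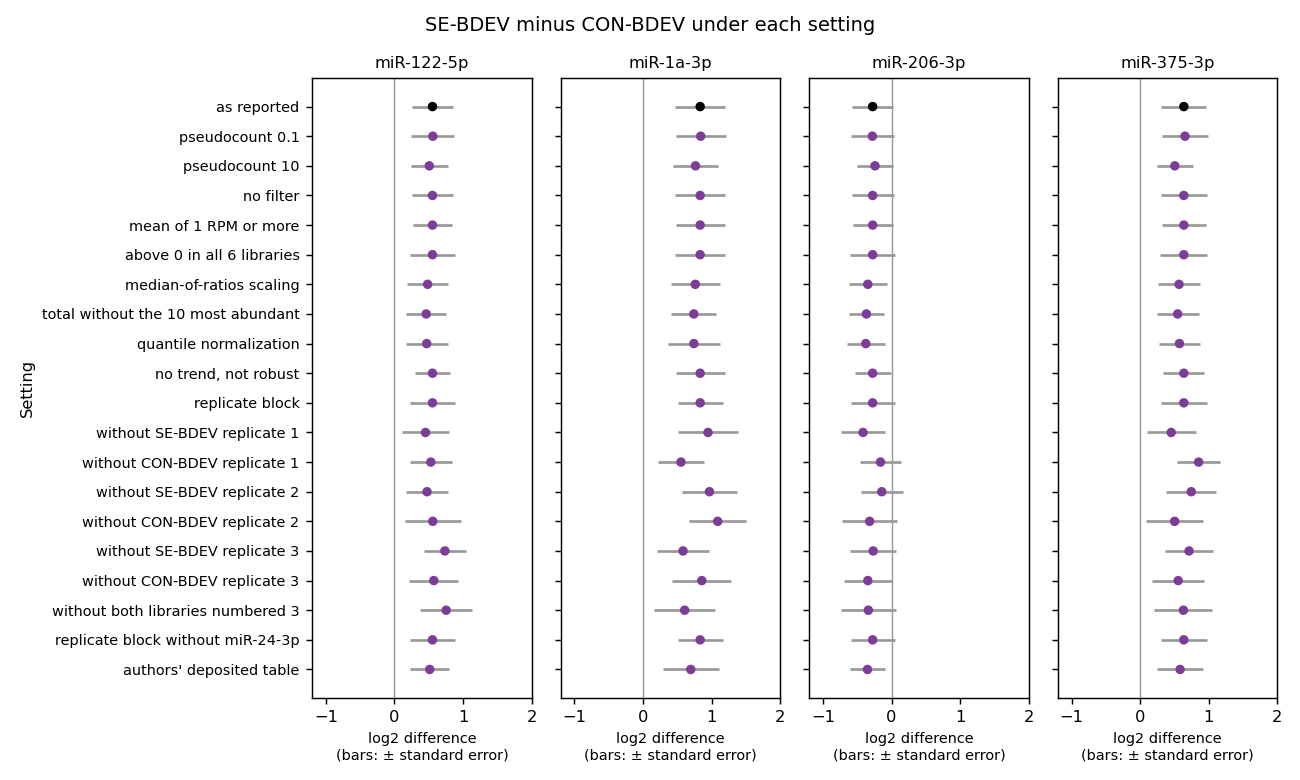
The log2 difference of SE-BDEV minus CON-BDEV for the 4 tested members as reported (black) and under each alternative (purple), with bars of 1 standard error. miR-122-5p, miR-1a-3p and miR-375-3p stay above 0, with miR-1a-3p between 0.55 and 1.09, and miR-206-3p stays below 0, between -0.42 and -0.14.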

How the data were processed

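The authors deposited RPM for 1926 miRNA features in 6 libraries, with 35 merged rows. Each library sums to 1000000, so a member's value also moves with the most abundant miRNAs. In a second table the authors deposited their own comparison of 803 features, holding a mean normalized signal, a test score, log2 fold changes with standard errors, and p-values raw and adjusted. DESeq2 and build mm9 stand in the submitters' processing notes. Per the labels' protocols, the miRNeasy Micro Kit gave the RNA, treated with DNase, and the QIAseq miRNA Library Kit the libraries. The aligner, the counting tool and any use of molecular identifiers were not stated in the sources used here.

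Differences were fitted with limma 3.58.1 in R 4.3.3 on log2(RPM + 1), using a trend in intensity and robust empirical Bayes. It covered the 308 miRNAs averaging at least 10 RPM, and p-values were adjusted over all of them. Single values used exact permutation tests (scipy 1.17.1). Fold changes on this scale understate changes of low miRNAs. The fit was checked on simulated data whose changes were all larger than the tested members' differences. That check does not cover changes of the members' size. Since values of 1 read are missing, no count model was used. The members and lists were chosen with earlier results of these data known. Named miRNAs were the members, their opposite arms and paralogs, listed miRNAs of other organs, brain cell types and blood, and the 3 tested miRNAs nearest in profile to each tested member. Groups share replicate numbers. Deviations from the group means correlated at 0.216, 0.202 and 0.462 for numbers 1, 2 and 3, all above the bound of 0.1 for treating them as pairs, but at -0.0639, -0.0614 and -0.0806 without miR-24-3p. The labels do not call them pairs.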

Additional observations from a re-analysis of the deposited data

How the results depend on the processing

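Under 19 alternatives to the reported fit, 0 members passed and no tested member changed sign. The log2 difference ranged from 0.55 to 1.09 for miR-1a-3p (adjusted p 0.143 to 0.844), 0.45 to 0.75 for miR-122-5p (0.398 to 0.825), 0.45 to 0.85 for miR-375-3p (0.311 to 0.753) and -0.42 to -0.14 for miR-206-3p (0.571 to 0.902). The smallest adjusted p, for miR-1a-3p, came with the replicate block. The replicate block changed no call of a member. Over the whole table it called 10 miRNAs against 3, and 10 again without miR-24-3p, a setting chosen after seeing the data. The authors' deposited table holds 7, and leaving out 1 library gave 2 to 8. The cause was not tested.

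Without CON-BDEV 3 the miR-194-5p difference was 1.34 RPM, and leaving out 1 library gave -2.70 to 1.34 RPM. Leaving out 1 library gave log2 ratio differences of -0.54 to 0.15 for miR-122-5p over miR-1a-3p, -0.345 to 0.0458 for miR-122-5p over miR-375-3p and -0.32 to 0.58 for miR-1a-3p over miR-375-3p. miR-206-3p over miR-375-3p ranged from -1.04 to -0.84. The members' summed difference was 86.6 to 128 RPM over its 8 alternatives, against 109 RPM. The planned edgeR and DESeq2 fits on recovered reads were not run, because the values list no single reads. Depth limits the merged row of miR-133a-3p and miR-133b-3p and miR-192-5p, whose highest library had 26 and 42 reads.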
